A study of Mus musculus with 4 samples.

Results

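The genes described here encode A20, its partner ABIN-1, TRAF adaptors and survival proteins that sit downstream of the IL-1 and TNF receptors. They are *Tnfaip3*, *Tnip1*, *Birc2*, *Birc3*, *Traf1*, *Traf2*, *Tifa*, *Cflar* and *Ripk2*, taken by their symbols, and each symbol matched 1 row, so that the group holds 9 of the 31053 genes in the count tables. The rule that names them uses no measured value. The cells came from pancreatic islets of adult male C57BL/6 mice (C57BL6/J in the study's methods), which were pooled over several animals and then divided among the conditions. Islets were left untreated or exposed for 6 h ex vivo to IL-1β, to IFN-γ or to both cytokines together, and each of the 4 conditions was measured in 1 droplet-based single-cell library. The labels name no transgene or gene deletion. Since each condition had 1 library, differences between conditions could not be checked in replicates or tested, and every interval below covers counting error only.

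When IL-1 or TNF binds its receptor, TRAF proteins and the cellular inhibitors of apoptosis (cIAP1, encoded by *Birc2*, and cIAP2, encoded by *Birc3*) build ubiquitin chains that recruit kinases and bring NF-κB into the nucleus. A20, encoded by *Tnfaip3*, edits such chains and ends the signal together with ABIN-1, encoded by *Tnip1*, and both *Tnfaip3* and *Birc3* are textbook target genes of NF-κB. TIFA is an adaptor that binds TRAF6, RIPK2 is the kinase that carries the signal of the sensors NOD1 and NOD2, and cFLIP, encoded by *Cflar*, holds back caspase-8.

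The positions are those of GENCODE M21 on GRCm38, the build that corresponds to mm10. *Tnfaip3* lies at chr10:19000910-19015657 and *Tnip1* at chr11:54910785-54962917, both on the minus strand. *Tifa* lies on the plus strand at chr3:127789805-127832164, where *Ap1ar* overlaps it on the opposite strand. *Birc2* (chr9:7818227-7837064) and *Birc3* (chr9:7848699-7873186) are paralogs that lie 11634 bases apart on the minus strand. How the counting treated reads that fit both paralogs was not given in the sources used here. *Ripk2* lies at chr4:16122733-16163647, *Cflar* at chr1:58711508-58758884, *Traf1* at chr2:34941750-34961772 and *Traf2* at chr2:25517982-25546940. None of the 9 genes overlapped a protein-coding gene on its own strand.

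Promoter windows were searched because *Tnfaip3*, *Tnip1*, *Birc3*, *Tifa* and *Ripk2* were higher together in the libraries with IL-1β, as described below, and the stretches that held a match are printed. RefSeq windows on GRCm38.p6, from 250 bases before to 50 bases after a start site, were at hand for 8 of the 9 genes, in 11 windows, and none for *Ripk2*. *Tnfaip3*, *Tifa* and *Birc2* had a second start with a window of its own. Both strands were searched for the NF-κB consensus. The NF-κB consensus was matched in 3 of the 11 windows, belonging to *Tnfaip3*, *Tnip1* and *Tifa*, and in 4.51% of all 32851 windows of this length. The other window of *Tnfaip3*, with its start at chr10:19011963, and that of *Tifa*, with its start at chr3:127789872, held no match. Distances below are from the start of the window that held the match. Each line below gives 30 bases, 5′ to 3′ on the strand of the gene, with the matched letters in capitals.
*Tnfaip3*, NF-κB consensus beginning 125 bases before the start, chr10:19015516-19015545: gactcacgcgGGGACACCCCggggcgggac
*Tnfaip3*, NF-κB consensus beginning 12 bases before the start, chr10:19015403-19015432: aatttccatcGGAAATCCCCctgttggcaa
*Tnip1*, 4 overlapping NF-κB matches beginning 58 bases before the start, chr11:54962978-54963007: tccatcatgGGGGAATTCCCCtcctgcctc
*Tifa*, NF-κB consensus beginning 33 bases after the start, chr3:127790677-127790706: gtcgttgtgatccGGGATTTTCCaattttc
A match is a description of the letters and does not show that a factor binds there. *Birc3*, *Birc2*, *Cflar*, *Traf1* and *Traf2* did not hold the consensus in these windows, which says only that these letters are not found so close to the start.

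In the order untreated, IL-1β, IFN-γ and both, the libraries held 3486, 2911, 3694 and 2480 barcodes with 50731370, 20056630, 31209339 and 25716645 UMIs. Barcodes were kept if they had 200 to 4000 genes and no more than 12% of UMIs from mitochondrial genes, which left 1521 untreated cells, 2018 after IL-1β, 2122 after IFN-γ and 1810 after both. A UMI marks a single captured molecule, so that the counts are of molecules. Median UMIs per kept cell were 15454, 7462.5, 9615 and 11123.5, respectively, so the untreated cells were the deepest. Cells were called β-like, δ-like, α-like or PP-like from the share of their UMIs that came from hormone genes, and other cells from marker genes. The 9 genes took no part in this. There were 4768 β-like, 553 δ-like and 888 α-like cells among 7471 in all. The markers that the rule did not use fitted these names. *G6pc2*, a β-cell phosphatase, was found in 84.2% of β-like cells, as against 4.62% in the other named classes, *Hhex* in 54.1% of δ-like cells against 1.82%, and *Irx2* in 63.1% of α-like cells against 2.39%. The libraries shared at most 4 barcodes in any pair, or no more than 0.137% of a library.

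In β-like cells, the genes differed widely in their response. *Tnfaip3*, *Birc3*, *Tifa*, *Ripk2* and *Tnip1* were at low levels without IL-1β, 6.49- to 63.3-fold higher after IL-1β alone and 9.08- to 91.3-fold higher after both cytokines. *Traf2* was 2.02-fold higher after IL-1β and 3.04-fold after both. *Birc2* and *Cflar* were already present without treatment and were at most 2.12-fold higher in any treated library. *Traf1* had at most 1 UMI per library. Levels are given as summed UMIs of a gene per 1000000 UMIs of the class (CPM) with exact Poisson 95% intervals, and ratios with exact conditional binomial 95% intervals. A gene was counted as higher when its ratio was at least 2, among genes with a mean of 5 CPM or more over the 4 libraries. Of the 9 genes, 8 passed this filter in β-like cells and *Traf1* did not. *Tnfaip3*, *Birc3*, *Traf2*, *Tifa* and *Ripk2* were under 5 CPM in the untreated library and passed through the libraries where they were higher, so that the counts of members are a description and not support for a response. With IL-1β alone, 6 of the 8 were at least 2-fold higher, when 16.7% of all 9207 genes tested were. With IFN-γ alone 2 of the 8 were, against 4.58% of all genes, and after both cytokines 7 of the 8 were, against 10.6%. These 3 comparisons share the untreated library.

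**Figure D1:**
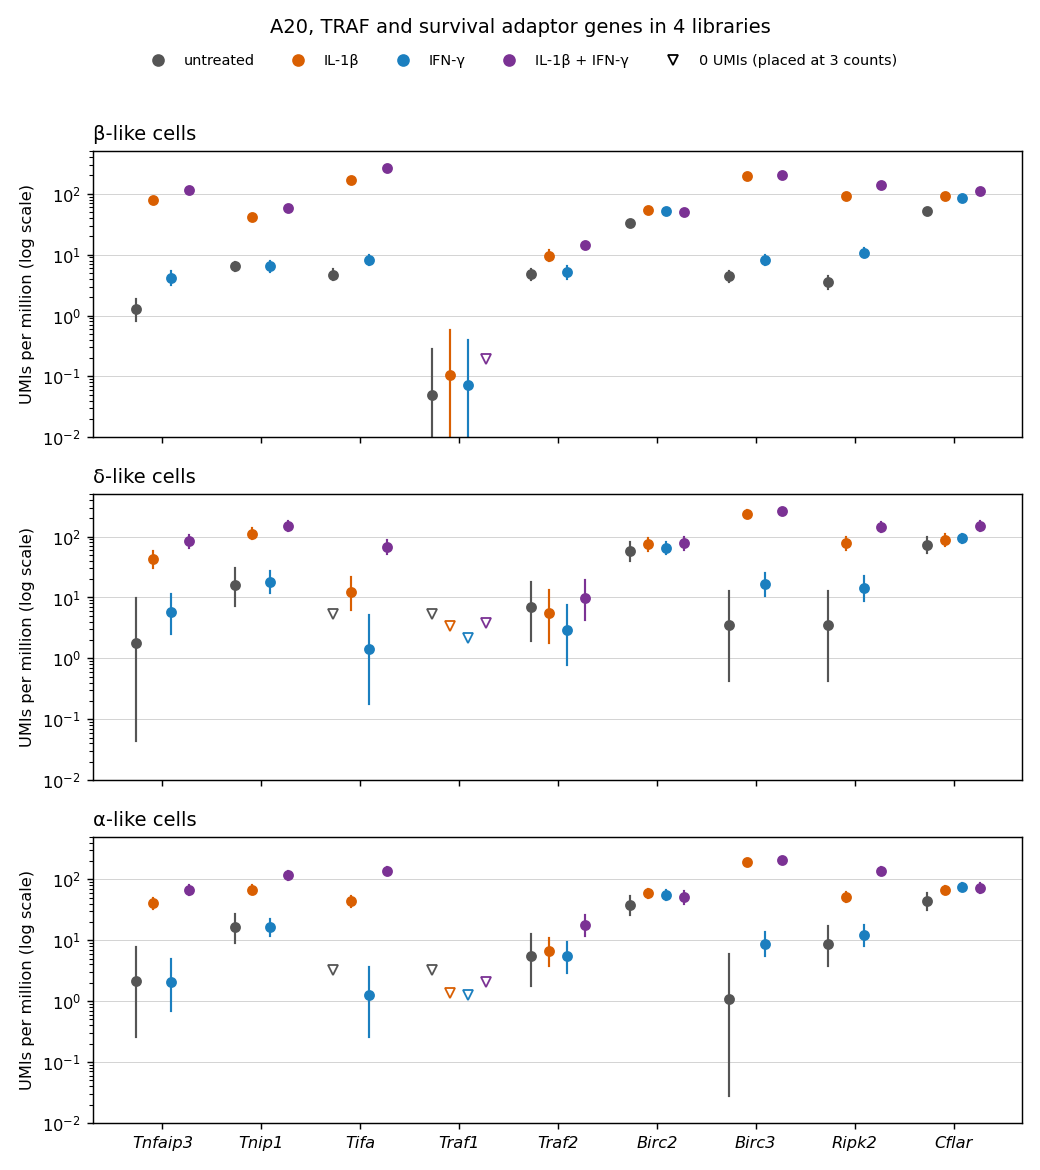
Levels of the 9 genes (UMIs per 1000000, log scale) in β-, δ- and α-like cells of the 4 libraries. Points are the summed level of 1 library, lines its exact Poisson 95% interval (for *Traf1* they run below the axis) and open triangles mark 0 UMIs, placed at the level of 3 counts. In β-like cells *Tnfaip3* sat at 1.26 and 4.19 CPM without IL-1β and at 79.8 and 115 CPM with it, whereas *Birc2* stayed between 33.5 and 53.5 CPM.

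Part of these ratios is shared by most genes. Hormone transcripts (insulins, glucagon, somatostatin, pancreatic polypeptides and amylin) made up 47.7% of the UMIs of untreated β-like cells, 28.8% after IL-1β, 34.7% after IFN-γ and 38.3% after both. The median ratio to the untreated library over all 9207 genes was 1.32 after IL-1β, 1.24 after IFN-γ and 1.04 after both, or 0.40, 0.31 and 0.06 on the log2 scale. Ratios are therefore also given divided by that median where a gene lay near it. With this division, 5 of the 8 genes were at least 2-fold higher after IL-1β, 2 after IFN-γ and 7 after both, against 7.47%, 2.65% and 9.75% of all genes.

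*Tnfaip3* was nearly undetected in untreated β-like cells, at 1.26 CPM (0.816 to 1.86, 25 UMIs in 1165 cells). It reached 79.8 CPM (74.2 to 85.7) after IL-1β, 4.19 CPM (3.18 to 5.41) after IFN-γ and 115 CPM (110 to 121) after both. The 2 libraries with IL-1β were thus far above the other 2, and no intervals overlapped. The ratio to the untreated library was 63.3 (42.5 to 98.4) after IL-1β, 3.32 (2.05 to 5.54) after IFN-γ and 91.3 (61.7 to 142) after both. With IL-1β, 99.5% of the genes tested had a lower ratio.

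*Tnip1*, whose product works beside A20, had a smaller range. Its level in β-like cells was 6.45 CPM untreated, 41.9 CPM after IL-1β, 6.50 CPM after IFN-γ and 58.6 CPM after both. IL-1β gave a ratio of 6.49 (5.30 to 7.98), and IFN-γ alone a ratio of 1.01 (0.760 to 1.33), below the 1.24 of the median gene. With both cytokines the ratio was 9.08 (7.54 to 11.0).

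Among the adaptors, *Tifa* was the most responsive. It had 4.69 CPM in untreated β-like cells, 171 CPM (163 to 180) after IL-1β, 8.30 CPM after IFN-γ and 269 CPM (261 to 278) after both. The ratios to the untreated library were 36.5 (29.6 to 45.5), 1.77 (1.34 to 2.35) and 57.4 (46.7 to 71.3). *Traf2*, which encodes the scaffold that holds the cIAPs, moved little by comparison, with 4.74 CPM untreated, 9.60 CPM after IL-1β, 5.13 CPM after IFN-γ and 14.4 CPM after both. Its ratio after IL-1β, 2.02 (1.5 to 2.73), lay at the 2-fold limit and came to 1.54 (1.14 to 2.08) over the median gene. With both it was 3.04 (2.38 to 3.92), or 2.91 (2.28 to 3.75) over the median gene. *Traf1*, another NF-κB target in many cells, had 1 UMI in each of the untreated, IL-1β and IFN-γ libraries and none among 1244 β-like cells after both cytokines, and a count of 0 taken as up to 3 counts allows 0.196 CPM.

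The paralogs *Birc2* and *Birc3* behaved differently. *Birc3* had 4.39 CPM (3.51 to 5.41) in untreated β-like cells, 197 CPM (189 to 207) after IL-1β, 8.16 CPM (6.72 to 9.81) after IFN-γ and 201 CPM (194 to 209) after both. The 2 libraries with IL-1β did not differ beyond their intervals and lay far above the rest, with ratios to untreated of 45 (36.3 to 56.4) and 45.9 (37.1 to 57.4). *Birc2* was measured at 33.5, 53.5, 52.8 and 50.1 CPM in the same order of untreated, IL-1β, IFN-γ and both. The intervals of the 3 treated libraries overlapped, and each was above the untreated one by 1.49- to 1.60-fold. Over the median gene these ratios were 1.21 after IL-1β, 1.27 after IFN-γ and 1.43 after both.

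*Ripk2* had 3.53 CPM in untreated β-like cells, 92.6 CPM (86.6 to 99) after IL-1β, 10.8 CPM (9.16 to 12.7) after IFN-γ and 141 CPM (135 to 147) after both. Its ratio after IFN-γ alone was 3.07 (2.29 to 4.13), at least 2 as was that of *Tnfaip3*, beside 26.2 (20.6 to 34.0) after IL-1β and 39.9 (31.5 to 51.4) after both. *Cflar*, the inhibitor of caspase-8, had 53.1, 93.4, 84.1 and 113 CPM in the order untreated, IL-1β, IFN-γ and both. Its ratios were 1.76 (1.61 to 1.93), 1.58 (1.46 to 1.72) and 2.12 (1.97 to 2.29), and 1.34, 1.27 and 2.03 over the median gene. With hormone genes left out of the totals the ratio after both cytokines fell under 2, and 6 of the 8 genes remained at least 2-fold higher, against 8.16% of all genes.

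Between the library with both cytokines and that with IL-1β alone, the sizes of the differences depended on the scaling. None of the 8 genes was 2-fold higher after both than after IL-1β alone, when 2.07% of all genes were, and the median gene was lower, with a ratio of 0.800. *Tifa* had a ratio of 1.57 (1.48 to 1.67), *Ripk2* of 1.52 (1.41 to 1.65), *Traf2* of 1.5 (1.17 to 1.94), *Tnfaip3* of 1.44 (1.33 to 1.57), *Tnip1* of 1.40 (1.24 to 1.58) and *Cflar* of 1.21 (1.11 to 1.31). *Birc3*, at 1.02 (0.962 to 1.08), and *Birc2*, at 0.937 (0.836 to 1.05), had intervals that held 1. Over the median gene these came to 1.27 (1.2 to 1.35) and 1.17 (1.05 to 1.31), off 1, and *Tifa* to 1.96 (1.85 to 2.08). Compared with IFN-γ alone, both cytokines gave at least 2-fold higher levels of 6 of the 8 genes, against 4.93% of all genes. These 6 were *Tnfaip3* (27.5, 21.2 to 36.4), *Tifa* (32.4, 26.9 to 39.4), *Birc3* (24.7, 20.4 to 30), *Ripk2* (13.0, 11.0 to 15.5), *Tnip1* (9.02, 7.26 to 11.3) and *Traf2* (2.81, 2.14 to 3.73).

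In δ- and α-like cells, the same 8 genes passed the filter, and *Traf1* had no UMI in any library of either class. With IL-1β, 5 of the 8 were at least 2-fold higher in δ-like cells (11.2% of all 9989 genes) and 5 of the 8 in α-like cells (8.44% of all 9708 genes). In both classes these were *Tnfaip3*, *Tnip1*, *Birc3*, *Tifa* and *Ripk2*. Untreated levels were under 5 CPM for *Tnfaip3*, *Birc3* and *Tifa* in both classes and for *Ripk2* in δ-like cells. These genes passed the filter through the libraries where they were higher, so that the counts in these classes are a description and not support for a response. *Tifa* had 11 UMIs in 6 δ-like cells after IL-1β and was not counted there after thinning to 4000 UMIs or by the mean over cells, where 4 of the 8 were, against 12.2% and 12% of all genes. With both cytokines the counts were 6 of the 8 in each class, against 12% of all genes in δ-like and 9.75% in α-like cells. The additional gene was *Cflar* in δ-like cells, with a ratio of 2.02 (1.41 to 2.95), and *Traf2* in α-like cells, with a ratio of 3.26 (1.23 to 10.9). The ratio of *Cflar* was under 2 with hormone genes left out (1.90), after thinning to 4000 UMIs (1.87) and without cells high in *Hspa1a* (1.98), which left 5 of the 8 each time, against 10.4%, 13.1% and 12.8% of all genes. IFN-γ alone gave 3 of the 8 in δ-like cells (5.93% of all genes), *Tnfaip3* (8 UMIs against 1, ratio 3.29, 0.441 to 146), *Birc3* (4.73, 1.17 to 41.4) and *Ripk2* (4.11, 0.9995 to 36.3), and 1 of the 8 in α-like cells (6.32%), *Birc3*. *Tnfaip3* was not counted in these δ-like cells after thinning, which left 2 of the 8, against 8.54% of all genes. There were 69 untreated δ-like and 91 untreated α-like cells, so that these ratios rest on few untreated UMIs. *Traf2* had only 4, 5, 4 and 8 UMIs in δ-like cells in the order untreated, IL-1β, IFN-γ and both, and its ratio of 0.411 (0.0766 to 2.21) for IFN-γ held 1 well within its interval.

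*Tnfaip3* had 1.76 CPM (1 UMI) in untreated δ-like cells, 42.5 CPM after IL-1β, 5.80 CPM after IFN-γ and 84.9 CPM after both. In α-like cells it had 2.17 CPM (2 UMIs), 40.8 CPM, 2.10 CPM and 67.3 CPM in that order. The ratios of IL-1β to untreated were 24.1 (4.07 to 977) in δ-like and 18.8 (5.06 to 158) in α-like cells. *Birc3* reached 239 CPM in δ-like and 194 CPM in α-like cells after IL-1β, from 3.52 CPM (2 UMIs) and 1.08 CPM (1 UMI) without treatment. With both it was at 261 and 209 CPM, and after IFN-γ alone at 16.7 and 8.82 CPM.

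*Ripk2* had 3.52, 78.2, 14.5 and 142 CPM in δ-like cells for untreated, IL-1β, IFN-γ and both. In α-like cells it had 8.67, 51.6, 12.2 and 137 CPM, and the ratio of both to IL-1β was 2.66 (2.11 to 3.38) there, as against 1.52 in β-like cells. *Tifa* had no UMI in untreated δ- or α-like cells. In δ-like cells its level was 12.3 CPM after IL-1β, 1.45 CPM (2 UMIs) after IFN-γ and 68.7 CPM after both, at least 2.33-fold and at least 13.0-fold higher than the level of 3 counts in the untreated cells for IL-1β and both. In α-like cells it was 44.0 CPM, 1.26 CPM (3 UMIs) and 137 CPM, at least 13.5-fold and at least 42.2-fold higher after IL-1β and both. Both cytokines together exceeded IL-1β alone for *Tifa* by 5.59-fold (2.89 to 11.8) in δ-like and 3.12-fold (2.44 to 4.02) in α-like cells, beside 1.57-fold in β-like cells. The intervals of these last ratios did not overlap that of β-like cells. They cover counting error only and leave out the uneven spread of UMIs over cells. After IL-1β, 11 *Tifa* UMIs lay in 6 δ-like cells, and the tenth of α-like cells with the most held 77.6% of the *Tifa* UMIs. The lack of overlap therefore does not show a difference between classes. The difference between classes itself was not tested.

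**Figure D2:**
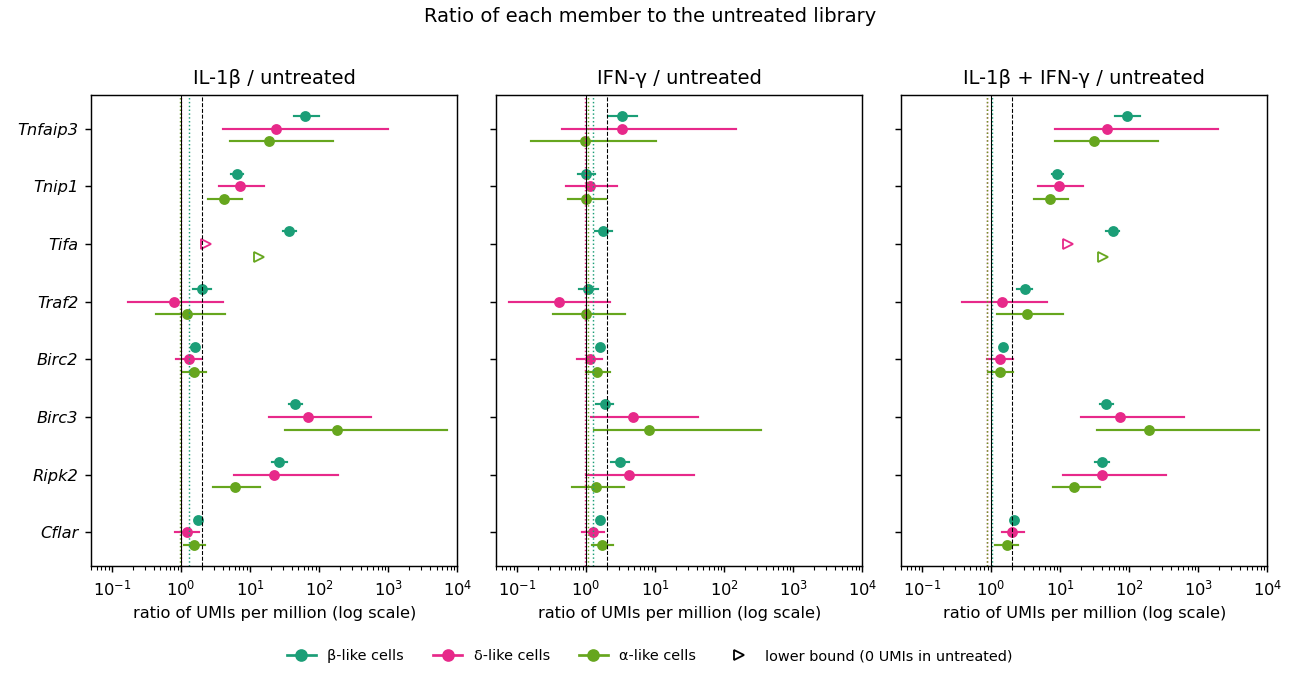
Ratios of UMIs per 1000000 in each treated library to the untreated library (log scale) for 8 genes in β-, δ- and α-like cells, with exact 95% intervals. The solid line marks 1, the dashed line 2, dotted lines the median of all genes tested in each class, and open triangles lower bounds. *Tnfaip3*, *Birc3*, *Ripk2* and *Tnip1* lie right of 2 in all 3 classes after IL-1β and after both cytokines, and the points of *Birc2* lie left of it in every panel.

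Levels of the same gene differed between classes within a library. Classes of 1 library were handled together, but their hormone content differs, and ratios with hormone genes left out of both totals are given for some genes. Of 93 ratios between classes, 21 left their main intervals that way. Among the 3 endocrine classes *Tifa* was highest in β-like cells after IL-1β and after both. With IL-1β it was at 171 CPM there, 44.0 CPM in α-like and 12.3 CPM in δ-like cells, so that β-like cells had 3.90-fold (3.18 to 4.83) the level of α-like and 13.9-fold (7.77 to 28.0) that of δ-like cells. Without hormone genes these ratios were 4.42 and 16.1. With both cytokines the ratios were 1.96 (1.70 to 2.27) and 3.92 (3.01 to 5.21), or 2.56 and 5.28 without hormone genes. Cells high in *Hspa1a* were a larger part of the δ- and α-like than of the β-like cells of that library. Without them 1169 of 1244 β-like, 78 of 124 δ-like and 117 of 167 α-like cells remained. The part of these cells in the ratios between classes was not tested. *Tnfaip3* after IL-1β was also higher in β-like cells, by 1.88-fold (1.36 to 2.68) over δ-like and 1.95-fold (1.57 to 2.46) over α-like cells, and the levels of those 2 did not differ beyond their intervals.

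*Tnip1* had the opposite order. With IL-1β it was at 112 CPM in δ-like, 68.2 CPM in α-like and 41.9 CPM in β-like cells, and the ratio of β- to δ-like cells was 0.375 (0.300 to 0.472). With both cytokines the levels were 150, 116 and 58.6 CPM in that order. The ratio of δ- to α-like cells was then 1.29 (1.01 to 1.64), or 1.25 (0.980 to 1.59) without hormone genes. In untreated cells *Tnip1* had 15.9 CPM in δ-like, 16.3 CPM in α-like and 6.45 CPM in β-like cells, and the ratio of β- to α-like cells, 0.397 (0.232 to 0.730), came to 0.577 (0.337 to 1.06) without hormone genes. *Birc3* differed less between the 3 classes after IL-1β. The ratio of β- to δ-like cells was 0.825 (0.716 to 0.955), or 0.953 (0.827 to 1.10) without hormone genes, and that of β- to α-like cells 1.02 (0.917 to 1.13), or 1.15 (1.04 to 1.28) without them. The ratio of δ- to α-like cells was 1.23 (1.04 to 1.46), or 1.21 (1.02 to 1.43).

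Outside the endocrine cells the levels rest on fewer than 50 cells per library, and on few UMIs. In macrophage-like cells *Tnfaip3* was already present without treatment, at 36.6 CPM (11 UMIs), and measured 33.5, 53.0 and 22.4 CPM after IL-1β, IFN-γ and both. *Tifa* was likewise present in untreated macrophage-like cells at 79.9 CPM, with 71.7, 115 and 108 CPM in the treated libraries, and all 4 intervals overlapped. *Traf1* was found in macrophage-like cells at 10.0, 38.2, 56.0 and 7.46 CPM in the order untreated, IL-1β, IFN-γ and both, or 3, 8, 19 and 2 UMIs. The 19 UMIs after IFN-γ lay in 4 cells, and 1 cell held 15 of them. In the endothelial-, mesenchymal-, ductal- and acinar-like cells there were at most 3 *Traf1* UMIs per library, with 3 in endothelial-like cells after IL-1β and 3 in mesenchymal-like cells after both. In endothelial-like cells *Tifa* had 53.6 CPM untreated, 87.8 CPM after IL-1β, 219 CPM after IFN-γ and 235 CPM after both. The intervals of the latter pair lay above the untreated one. *Tnip1* in endothelial-like cells had 43.9, 139, 62.5 and 274 CPM. These levels of *Tifa* after IFN-γ alone contrast with 8.30 CPM in β-like cells of that library.

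**Figure D3:**
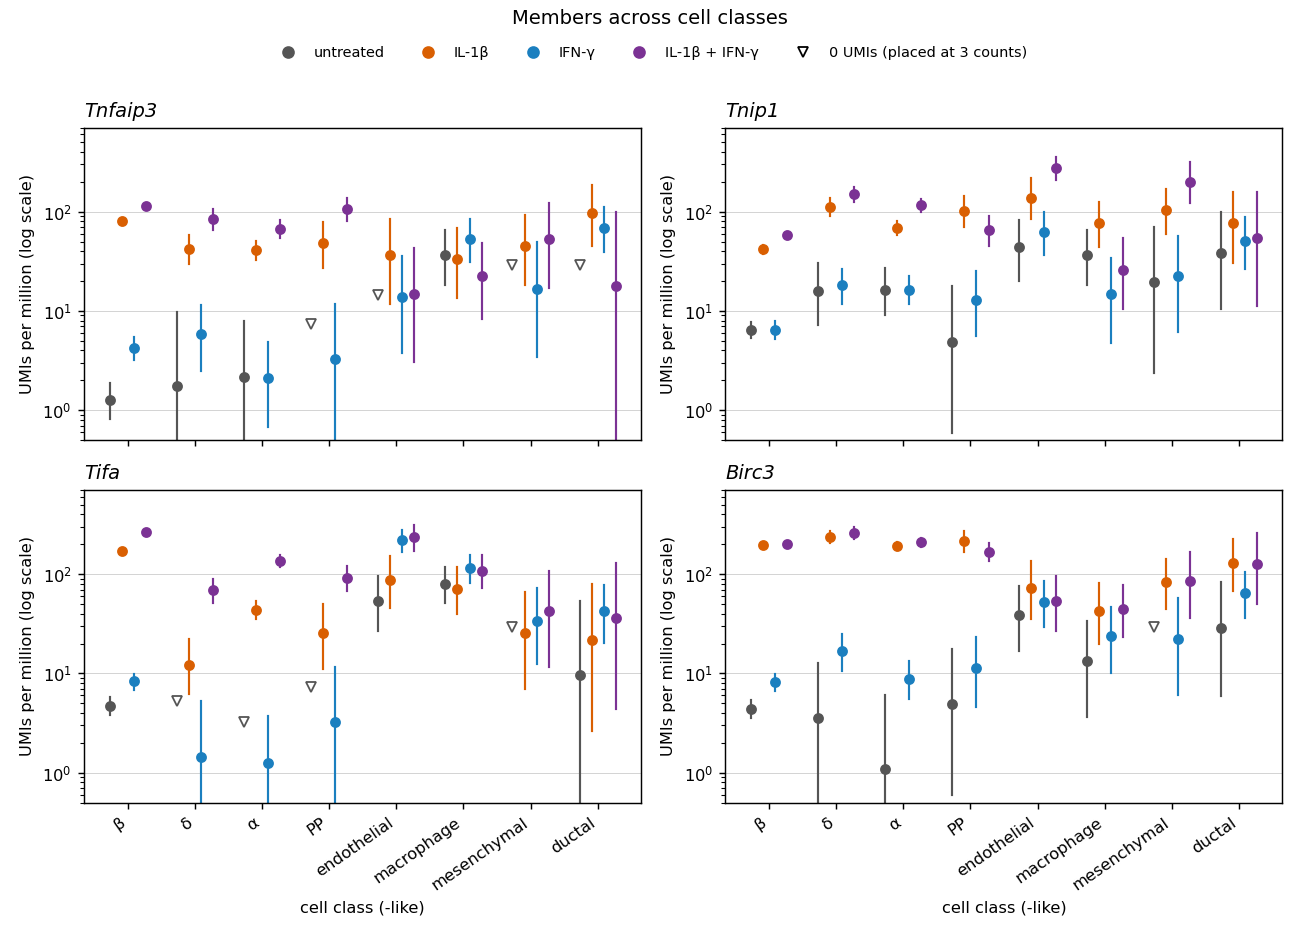
Levels of *Tnfaip3*, *Tnip1*, *Tifa* and *Birc3* (UMIs per 1000000, log scale) in 8 cell classes of the 4 libraries, with exact Poisson 95% intervals and open triangles for 0 UMIs, placed at 3 counts. In macrophage-like cells *Tifa* lies between 71.7 and 115 CPM in all 4 libraries, and in endothelial-like cells it is at 219 CPM after IFN-γ alone, where β-like cells are at 8.30 CPM.

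The share of cells with a UMI depends on depth, so it was also taken after every cell was thinned to 4000 UMIs, below which lay 32, 74, 50 and 31 of the β-like cells, in the order given above. *Tnfaip3* was found in 1.89% (1.19 to 2.85) of β-like cells untreated, 33.4% (30.6 to 36.2) after IL-1β, 3.77% after IFN-γ and 50.2% (47.4 to 53.1) after both, or 0.441%, 20.1%, 1.67% and 30.5% after thinning. For *Tifa*, the thinned shares were 1.68%, 32.2%, 2.76% and 45.5%, and for *Birc3* 2.03%, 50.4%, 2.92% and 48.3%. Of the 56 acinar-like cells of all libraries, with a median of 1497 UMIs where β-like cells had 11682.5, 1 held a *Tnfaip3* UMI, or 1.79% (0.0452 to 9.55), and 2 each a *Tifa* and a *Birc3* UMI, or 3.57% (0.435 to 12.3). These cells serve as a measure of free RNA, and their shares are not matched in depth. In summed level, *Tnfaip3* after IL-1β was at 10.7 CPM (0.271 to 59.6) in 15 acinar-like cells, below its 79.8 CPM in β-like cells. At the thinned depth 64.2% of untreated β-like cells held none of the 9 transcripts, and 13.7% after IL-1β, 48.9% after IFN-γ and 8.24% after both. At least 3 of the 9 were found in 0.177% of untreated β-like cells, 33.3% after IL-1β, 1.84% after IFN-γ and 44.0% after both.

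The transcripts were spread unevenly over β-like cells, and some far more so than others. If every cell had the same level, the depths of the cells would give *Tifa* in 73.5% of the IL-1β cells, and it was found in 43.8% (40.9 to 46.8). With both cytokines it was found in 66.8% (64.1 to 69.4) where an equal level would give 93.4%. A single cell held up to 24 *Tifa* UMIs after IL-1β and up to 43 after both. *Tnfaip3* was found in 33.4% of the IL-1β cells where an equal level would give 47.9%, and in 50.2% of the cells after both where it would give 73.0%. *Birc2* lay close to an equal level, with 34.3% (31.5 to 37.1) measured and 35.8% computed after IL-1β. *Tnip1* was likewise near it after IL-1β, with 27.5% (24.9 to 30.2) and 29.5%, but after both it was found in 45.7% (42.9 to 48.5) where an equal level would give 50.01%. In δ-like cells after IL-1β, *Birc3* was found in 67.6% where an equal level would give 68.0%, in contrast to 67.8% and 77.9% in β-like cells.

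**Figure D4:**
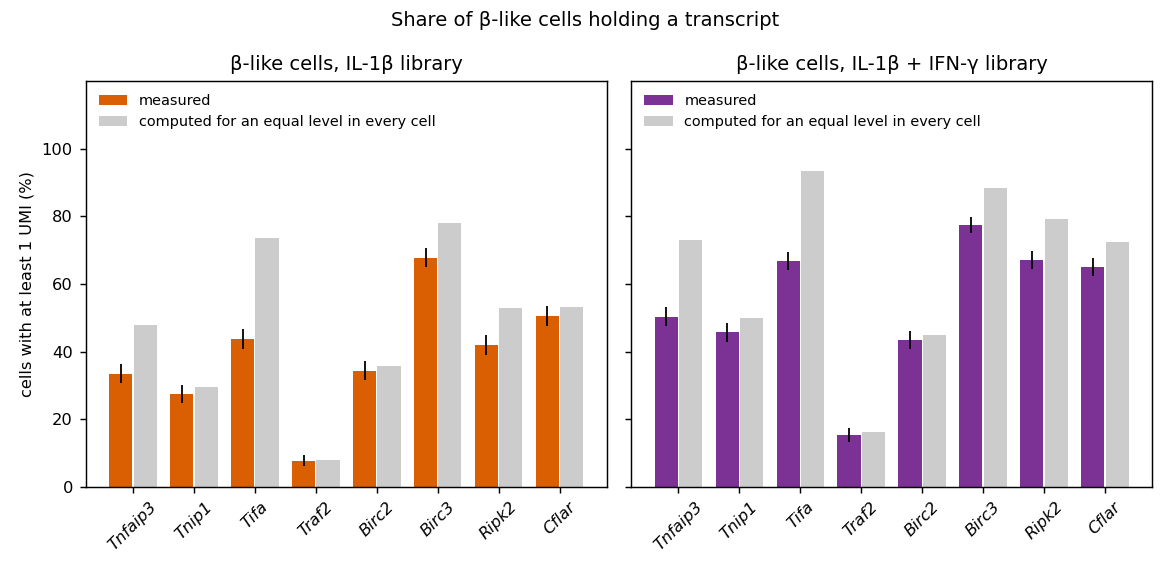
Share of β-like cells with at least 1 UMI of each gene (%, bars from 0, with exact binomial 95% intervals) beside the share that the cells' depths would give if every cell had the same level (grey), in the IL-1β and the IL-1β + IFN-γ library. The gap is widest for *Tifa*, 43.8% against 73.5% and 66.8% against 93.4%, and narrow for *Birc2* and *Traf2*.

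Within each library with IL-1β, levels were compared between β-like cells with and without *Nos2*, and several of the genes were higher in cells with it. A *Nos2* UMI, from the gene of inducible nitric oxide synthase, was found in 28.9% of β-like cells after IL-1β and in 70.7% after both cytokines. These cells were deeper, with medians of 9208 against 7909 UMIs after IL-1β and 12839.5 against 10570 after both, and a deeper cell is more likely to show a *Nos2* UMI, and the part of depth in these ratios was not tested. With both cytokines *Tnfaip3* had 131 CPM in cells with *Nos2* and 68.5 CPM in cells without, a ratio of 1.91 (1.67 to 2.18). *Tifa* had a ratio of 1.63 (1.5 to 1.77), *Birc3* of 1.52 (1.38 to 1.67) and *Ripk2* of 1.46 (1.31 to 1.63). *Birc2* had a ratio of 0.827 (0.706 to 0.972) after both, and of 0.894 (0.734 to 1.08) after IL-1β, an interval that held 1.

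Cells high in *Hspa1a*, which encodes a heat shock chaperone, were set apart at 10 or more *Hspa1a* UMIs per 10000. They were 96 of the 1112 β-like cells after IL-1β, with a median of 6353.5 UMIs against 8503 in the others, and 75 of 1244 after both, with 11800 against 12227. With IL-1β, *Tifa* had 14.2 CPM in these cells and 183 CPM in the others, a ratio of 0.0778 (0.0355 to 0.148). *Birc3* had 58.4 and 207 CPM, a ratio of 0.281 (0.198 to 0.389), and *Ripk2* 30 and 97.1 CPM, a ratio of 0.309 (0.185 to 0.485). *Tnfaip3* in the same cells had 72.6 CPM against 80.3 CPM in the others, a ratio of 0.904 (0.656 to 1.22). With both cytokines *Tnfaip3* also was lower, with a ratio of 0.585 (0.442 to 0.760), and *Tifa* had a ratio of 0.428 (0.347 to 0.521). *Birc2* had ratios of 1.2 (0.843 to 1.65) and 1.33 (0.990 to 1.75), with intervals that held 1.

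**Figure D5:**
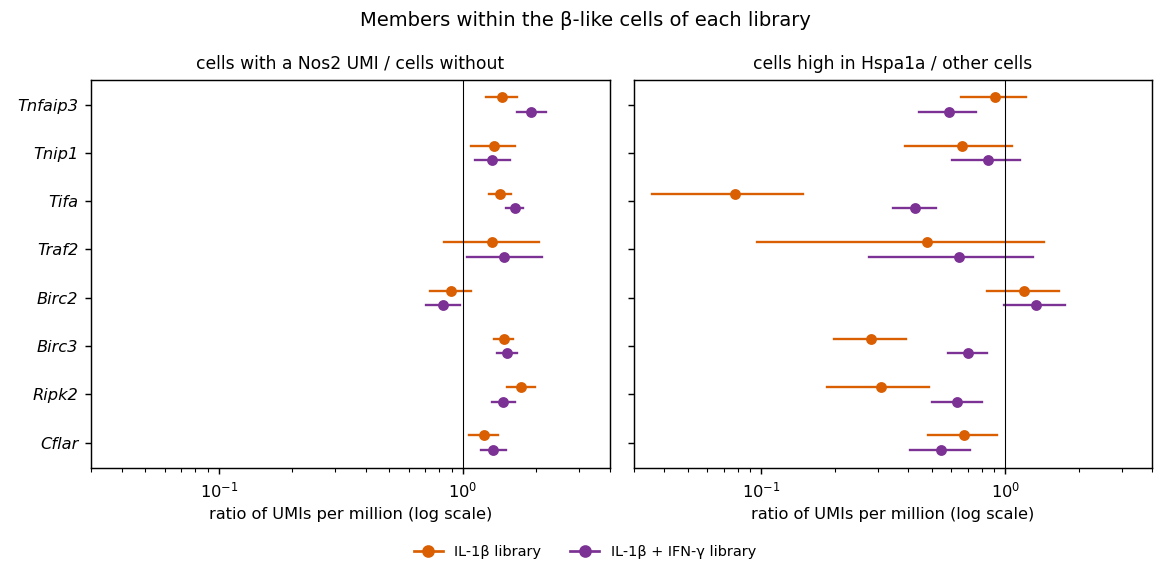
Ratios of UMIs per 1000000 (log scale) between β-like cells with and without a *Nos2* UMI (left) and between β-like cells high in *Hspa1a* and the others (right), in the IL-1β and IL-1β + IFN-γ libraries, with exact 95% intervals. *Tifa* lies at 0.0778 and 0.428 on the right, and *Tnfaip3* after IL-1β at 0.904.

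The other genes of these complexes were taken as 5 lists and counted in β-like cells. Genes such as *Tnip3*, *Fas* and *Mlkl* were under 5 CPM in the untreated library and passed the filter through libraries where they were higher. The counts and medians of the lists are therefore a description and not support for a response. All 3 comparisons with the untreated library were also counted for genes at most 0.5-fold, which were 3.76% of all genes after IL-1β, 0.141% after IFN-γ and 7.74% after both. Among partners of A20 and enzymes of ubiquitin editing, 12 of 12 passed the filter and 2 were at least 2-fold higher in each of the 3 comparisons, with none lower, beside 16.7% of all genes after IL-1β, 4.58% after IFN-γ and 10.6% after both. The median ratio of the list was 1.59 after IL-1β, 1.40 after IFN-γ and 1.60 after both, and that of all genes 1.32, 1.24 and 1.04. Over the median gene, *Rnf11* after IL-1β (2.20) and *Rnf31* after IFN-γ came under 2. With this division 7.47% and 2.65% of all genes were at least 2-fold higher in these 2 comparisons. *Tnip3*, which encodes the A20-binding protein ABIN-3, had no UMI in untreated β-like cells, 18.04 CPM (171 UMIs) after IL-1β, 0.578 CPM (8 UMIs) after IFN-γ and 9.20 CPM (141 UMIs) after both. Against 3 counts in the untreated library it was at least 119-fold higher after IL-1β, at least 3.82-fold after IFN-γ and at least 60.8-fold after both. *Rnf31*, which encodes the catalytic subunit of the linear ubiquitin ligase, had 12.5 CPM untreated, 16.2 CPM after IL-1β, 26.4 CPM after IFN-γ and 32.8 CPM after both, a ratio of 2.63 (2.25 to 3.07) for both. In CPM, this order was unlike that of those of the 9 genes that passed the filter. Over the median gene, *Birc2* was also higher after IFN-γ (1.27) than after IL-1β (1.21). *Tnip2*, which encodes another A20-binding protein, had a ratio of 1.94 (1.49 to 2.53), and *Spata2*, which links CYLD to linear ubiquitin, of 1.85 (1.46 to 2.35).

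Among other TRAFs and their binding partners 7 of 10 passed the filter. With IL-1β 6 of the 7 were at least 2-fold higher, after IFN-γ 1 and after both 4, beside 16.7%, 4.58% and 10.6% of all genes, and none of the 7 was lower. Over the median gene, *Traf3* (2.19) and *Traf6* (2.31) came under 2 after IL-1β. *Tbk1* after IFN-γ (11.4 to 23.2 CPM) did too, and *Tank* after both (2.09) narrowly. With this division 7.47%, 2.65% and 9.75% of all genes were at least 2-fold higher. *Traf4*, named after its values were seen, lay under the filter and was lower after IL-1β, with 29 UMIs against 128 untreated, or 3.06 against 6.45 CPM, a ratio of 0.474 (0.305 to 0.714). The list's median ratio was 2.89, 1.39 and 2.09, and that of all genes 1.32, 1.24 and 1.04. *Ikbke*, a kinase of the IKK family, had 5.95, 48.3, 6.79 and 57.5 CPM in untreated, IL-1β, IFN-γ and combined β-like cells, a ratio of 9.66 (7.96 to 11.8) for both. *Traf3ip2*, which encodes the adaptor ACT1 of the IL-17 receptor, had a ratio of 3.29 (2.68 to 4.05), *Tbk1* of 2.54 (2.16 to 3.0) and *Tank*, a TRAF-binding partner of TBK1, of 2.09 (1.76 to 2.47).

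Of the other inhibitors of apoptosis and their antagonists 5 of 9 passed, with 1 at least 2-fold higher after IL-1β, near the 16.7% of all genes, and none after IFN-γ (4.58%) or after both (10.6%). *Xiap*, the direct caspase inhibitor, had 23.0, 59.6, 39.2 and 41.8 CPM in the order of untreated, IL-1β, IFN-γ and both, and *Diablo*, which encodes an antagonist of these inhibitors, 25.2, 34.3, 33.6 and 28.6 CPM. *Xiap* was the 1 counted after IL-1β (2.59). Over the median gene it came under 2, where 7.47% of all genes were at least 2-fold higher. *Htra2* and *Naip2* had ratios of 1.49 (1.14 to 1.94) and 1.35 (1.15 to 1.58) after both. Of RIP kinases, TAK1 and IKK genes 11 of 16 passed, with 4 higher and 1 lower after IL-1β, none after IFN-γ, and 1 in each direction after both, where the shares of all genes at least 2-fold higher were 16.7%, 4.58% and 10.6%. The higher one was *Ripk1*, whose kinase joins the TNF receptor complex, with 18.5, 40.9, 35.9 and 75.9 CPM, a ratio of 4.11 (3.66 to 4.64). The lower one was *Tab1*, which encodes a TAK1-binding protein, with 9.28, 5.70, 6.14 and 3.98 CPM, a ratio of 0.429 (0.316 to 0.576). *Ikbkb* and *Chuk*, which encode the IκB kinases, had ratios of 1.86 (1.64 to 2.10) and 1.80 (1.63 to 1.98). *Ripk1* and *Chuk* (36.7 to 82.9 CPM) were among the 4 counted after IL-1β. Over the median gene both came under 2 there, where 7.47% of all genes were at least 2-fold higher.

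In the death receptor complex 6 of 7 genes passed, with 4 at least 2-fold higher after IL-1β, 2 after IFN-γ and 4 after both, beside 16.7%, 4.58% and 10.6% of all genes, and none lower. The list's median ratio after both was 3.49, against 1.04 over all genes. *Fas* and *Mlkl* passed the filter through the libraries where they were higher, so that these counts and this median are a description. *Fas*, which encodes a death receptor, had 0.0504 CPM (1 UMI) untreated, 34.7 CPM after IL-1β, 1.16 CPM after IFN-γ and 42.1 CPM after both. *Mlkl*, the effector of necroptosis, had 0.908, 8.02, 14.7 and 28.4 CPM, a ratio of 31.3 (19.6 to 53.4) for both. *Tnfrsf1a*, which encodes the TNF receptor that recruits TRAF2 and the cIAPs, had a ratio of 3.75 (3.46 to 4.08), and *Casp8*, the protease held back by cFLIP, of 3.22 (2.65 to 3.94). After IL-1β *Casp8* (7.21 to 18.8 CPM) was among the 4 counted. Over the median gene it came under 2 there, where 7.47% of all genes were at least 2-fold higher.

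The genes whose pattern was most like that of *Tnfaip3* were found over 12 pools, the β-, δ- and α-like cells of the 4 libraries, by Pearson's r of log2(CPM + 1) among 9878 genes. These pools share libraries and are not independent, so that r is a description. The 5 closest were *Ripk2* (r = 0.979), *Sod2* (0.977), which encodes the mitochondrial superoxide dismutase, *Gsap* (0.977), *Etv6* (0.974) and *Susd6* (0.970). For *Birc3* they were *Cebpd* (r = 0.978), a C/EBP transcription factor, *Gsap* (0.974), *Nfkbiz* (0.970), an atypical IκB protein, *Steap1* (0.968) and *Tnfaip3* (0.965). Among the 9 genes themselves, *Tnfaip3* had r = 0.921 with *Tifa* and 0.879 with *Tnip1*, 0.720 with *Traf2*, 0.642 with *Cflar* and 0.465 with *Birc2*.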

How the data were processed

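Reads had been demultiplexed and UMIs counted by the authors in Cell Ranger against mm10, per the labels and the deposited processing notes. The matrix headers give a software version of 3.0.0. The deposited values are raw UMI counts. The paper names another kit version than the labels. Cells were kept by the limits of the study, 200 to 4000 genes and at most 12% mitochondrial UMIs. β-like cells had at least 5% insulin UMIs, δ-like cells at least 1% *Sst*, α-like and PP-like cells at least 2% of their hormone, with other hormones mostly held under 0.5%. These limits were set after seeing the hormone shares, and 129 cells lay between 4% and 6% insulin. Other cells needed 3 markers and 0.1% marker UMIs (2% for acinar-like cells), and 357 mixed-hormone and 248 unnamed cells were kept apart. Doublets were not removed except in an alternative.

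Summed UMIs per 1000000 were computed with Python 3.11.15, numpy 2.4.6 and scipy 1.17.1. Ratio calculations were tested on simulated Poisson counts, which leave out the uneven spread of UMIs over cells and so do not test the intervals for it. A library at 0 was set to 3 counts for a bound, and no ratio was formed where both libraries had 3 counts or fewer. The members, lists and limits were chosen with earlier results of these data known. All 9 genes are named, and from each list up to 4 genes with the largest ratio in either direction for both cytokines against untreated in β-like cells, where a gene with no untreated UMI ranks by its bound. The *Nos2* division and the division by the median ratio were chosen after seeing the data.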

Additional observations from a re-analysis of the deposited data

Results flagged for a closer look

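Barcodes with over 12% mitochondrial UMIs took no part in the levels and ratios of the report, other than the alternative with a limit of 20%, and *Tnfaip3* and *Birc3* were above the untreated level in those of the 2 libraries with IL-1β. *Tnfaip3* had 0.95 CPM (0.196 to 2.78) in the 1120 such barcodes of the untreated library, 49.0 CPM (38.8 to 61.2) in the 742 of the IL-1β library and 79.7 CPM (61.7 to 101) in the 447 with both cytokines. *Birc3* had 5.70 CPM (3.38 to 9.01) untreated, 165 CPM (145 to 186) in the IL-1β library and 285 CPM (250 to 324) in the combined one. In the 1226 such barcodes of the IFN-γ library *Tnfaip3* had 4.98 CPM (2.85 to 8.09) and *Birc3* 8.10 CPM (5.29 to 11.9), and the interval of *Birc3* overlapped the untreated one. These barcodes were not divided into cell classes.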

How the results depend on the processing

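Each alternative changed 1 choice, and the counts of genes at least 2-fold higher among the 9 moved by no more than 1.5 times in every case other than those given here. In α-like cells with IFN-γ alone, where 1 of the 8 genes was counted, the count was 2 without an upper gene limit, 2 with the leading hormone at 95% or more, 2 at a fold of 1.5 and 0 after thinning to 4000 UMIs, against 5.16%, 8.18%, 16.5% and 11.2% of all genes. At a fold of 1.5, 6 genes were counted in β-like cells with IFN-γ alone and 3 for both cytokines against IL-1β, against 19.2% and 4.39% of all genes. The cause was not tested. No ratio of at least 2 fell under 1. Of 713 ratios under 9 alternatives 31 changed side of 1, and the main interval of each of these held 1. In β-like cells with hormone genes left out they included *Birc2* for both against IL-1β (0.937 to 1.08), and *Tnip1* (1.01 to 0.806) and *Traf2* (1.08 to 0.866) after IFN-γ. All 82 ratios stayed within their main intervals without an upper gene limit, with a mitochondrial limit of 20%, without Scrublet doublets (75 cells) and without cells high in *Hspa1a*. With hormone genes out of the totals 18 of 82 left them, and 18 of 82 after division by the median gene. A total of 8 of 78 left them after thinning, 3 of 61 with the 95% hormone rule and 2 of 82 with the mean over cells. The 95% rule left 1 untreated δ-like cell, so no value was taken for that class. Each condition had 1 library and the labels give no replicate numbers. No paired analysis was possible because of this. Among all genes of β-like cells, those at least 2-fold higher numbered 1541 after IL-1β, but 717 with hormone genes left out and 688 over the median gene. After IFN-γ they numbered 422, 279 and 244, and for both against IL-1β 191, 313 and 322. With a filter of 1 CPM they numbered 720 after IFN-γ, 323 for both against IL-1β and 706 for both against IFN-γ (454 with 5 CPM). With 20 CPM the counts after IL-1β, IFN-γ and both (980 with 5 CPM) were 959, 233 and 630, and those of both against IL-1β and IFN-γ 100 and 263. At a fold of 1.5 these 5 counts were 3465, 1771, 1934, 404 and 856. In δ-like cells the counts after IL-1β, IFN-γ and both were 1119, 592 and 1203, but 599, 247 and 735 with 20 CPM and 2137, 1359 and 1991 at a fold of 1.5. In α-like cells 819, 614 and 947 became 412, 240 and 517 with 20 CPM and 1711, 1599 and 1657 at a fold of 1.5, and the count after IFN-γ was 971 with 1 CPM and 1082 after thinning. The ratios to untreated in δ- and α-like cells rest on 69 and 91 untreated cells.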

Other observations

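In the 195 PP-like cells the same genes were high after IL-1β. *Birc3* had 4.92 CPM (2 UMIs) untreated, 215 CPM after IL-1β, 11.3 CPM after IFN-γ and 167 CPM after both, and *Tnip1* had 4.92, 103, 13.0 and 65.0 CPM. *Tnfaip3* had no UMI in untreated PP-like cells, 48.1 CPM after IL-1β, 3.24 CPM after IFN-γ and 106 CPM after both. In the mixed-hormone cells, which can be doublets, *Tifa* had no UMI untreated and 94.1, 1.18 and 152 CPM in the other libraries.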
